A study of Mus musculus with 6 samples.

Results

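The primitive endoderm genes examined here were Gata4, Gata6, Sox17, Sox7, Pdgfra, Dab2, Cubn, Lama1, Lamb1 and Sparc, measured on Affymetrix mouse arrays of embryonic stem (ES) cells in which human GTF2I could be switched on. Every probe set whose only gene symbol was one of these 10 names was taken, which gave 26 of the 45037 probe sets tested and 10 of 18193 genes. None of the 26 probe sets passed the test between induced and uninduced cells, nor did any of all 45037. The log2 differences of the 26 lay between -0.24 and 0.26. None of the 26 passed a test of the difference among the clones either, where 1.13% of all probe sets did. That count depended on the arrays of clone A1. Sox7 spanned 0.91 on the log2 scale over the 6 arrays, the widest range among the brightest probe sets of the 10 genes. The values of that probe set were ordered by clone, an order that the other Sox7 probe set did not share.

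Primitive endoderm is the epithelium that covers the inner cell mass of the blastocyst and later forms the visceral and parietal endoderm of the yolk sac. Its precursors respond to fibroblast growth factor, take up a program led by GATA and SOX transcription factors, and display the receptor Pdgfra early. The mature cells lay down a laminin-rich basement membrane and take up maternal nutrients through endocytic receptors such as cubilin. ES cell cultures can hold a few cells that move towards this fate, and forced Gata4, Gata6 or Sox17 is known to turn ES cells into endoderm of this kind.

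There were 3 clones (A1, B3 and C6), derived from the EBRTcH3 (EB3) mouse ES line. Each carried the human GTF2I coding sequence, without its untranslated regions and with a 3xFLAG tag, at Rosa26 behind a tetracycline-repressed promoter. Its product, the transcription factor TFII-I, is one of those lost from 1 chromosome in Williams-Beuren syndrome. All cells were kept undifferentiated in ES medium with LIF. The uninduced group was 1 array per clone from cells kept in tetracycline (0 h), and the induced group was 1 array per clone after 24 h without it, so each group had 3 arrays. A clone is a line grown from a single recombinant cell, and each clone was hybridized once per state. The spread between arrays therefore holds clone differences and technical error together. No arrays of the parental line were analysed here, so the effect of removing tetracycline itself cannot be told apart from that of the transgene. The sample titles give GTF2I as the transgene, although GTF2IRD2 stands in a genotype field, and the titles were used.

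Array medians ran from 5.06 to 5.11 (log2), and the 12 ES cell identity genes listed below were above the upper quartile on all 6 arrays. The 4 mouse Gtf2i probe sets differed by -0.42 to 0.01 between induced and uninduced arrays and none passed. They were designed on the mouse gene and are no check of the human transgene. The paper's own RT-PCR of the induction time course reports more GTF2I RNA after 24 h without tetracycline in each of the 3 clones. The paper marks the 0 h and 24 h RNA samples of that time course as those used for the arrays. Clone A1 stood apart. In the 17168 probe sets whose mean reached 6, its induced minus uninduced differences correlated at -0.64 with those of B3 and at -0.76 with those of C6 across probe sets, whereas B3 and C6 correlated at 0.67. Probe sets are not independent replicates, so these are descriptions. In 60.3% of those probe sets A1 moved against both other clones. The labels do not settle whether the uninduced and induced labels of A1 stand on the right arrays, so an opposite response of A1 and an exchange of its labels cannot be told apart. An exchange would turn the sign of every A1 difference given here and alter the means over the 3 clones. The labels were used as given. The differences of B3 and C6 without A1 are therefore given beside those of all 3 clones.

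Across the 3 clones the 10 genes showed no call with induction. Of the 26 probe sets, 10 had a higher and 16 a lower mean in the induced arrays, with a median difference of -0.05 against 0.00075 for all 45037. In limma, with p adjusted over all probe sets (Benjamini-Hochberg), 0 of 26 passed at an adjusted p of 0.05, where 0% of all probe sets passed. At an unadjusted p under 0.05 the count was 0 of 26 in limma, where 436 of all 45037 were counted. It was 0 of 26 in the methods' t-test (867 of all 45037) and 1 of 26 with the clone as a replicate block (847 of all 45037). Induced and uninduced arrays overlapped in all 26 probe sets, and they failed to overlap in 2049 of all 45037. In bulk RNA a change in the share of cells that express a gene cannot be told apart from a change in RNA per cell. The 95% intervals, with 3 arrays per group, reached 0.23 to 0.55 to either side of the estimate (median 0.32). They are not adjusted for the number of probe sets, so a difference beyond them need not pass. Over all 45037 probe sets the differences ran from -0.91 to 0.91 and none passed.

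**Figure D1:**
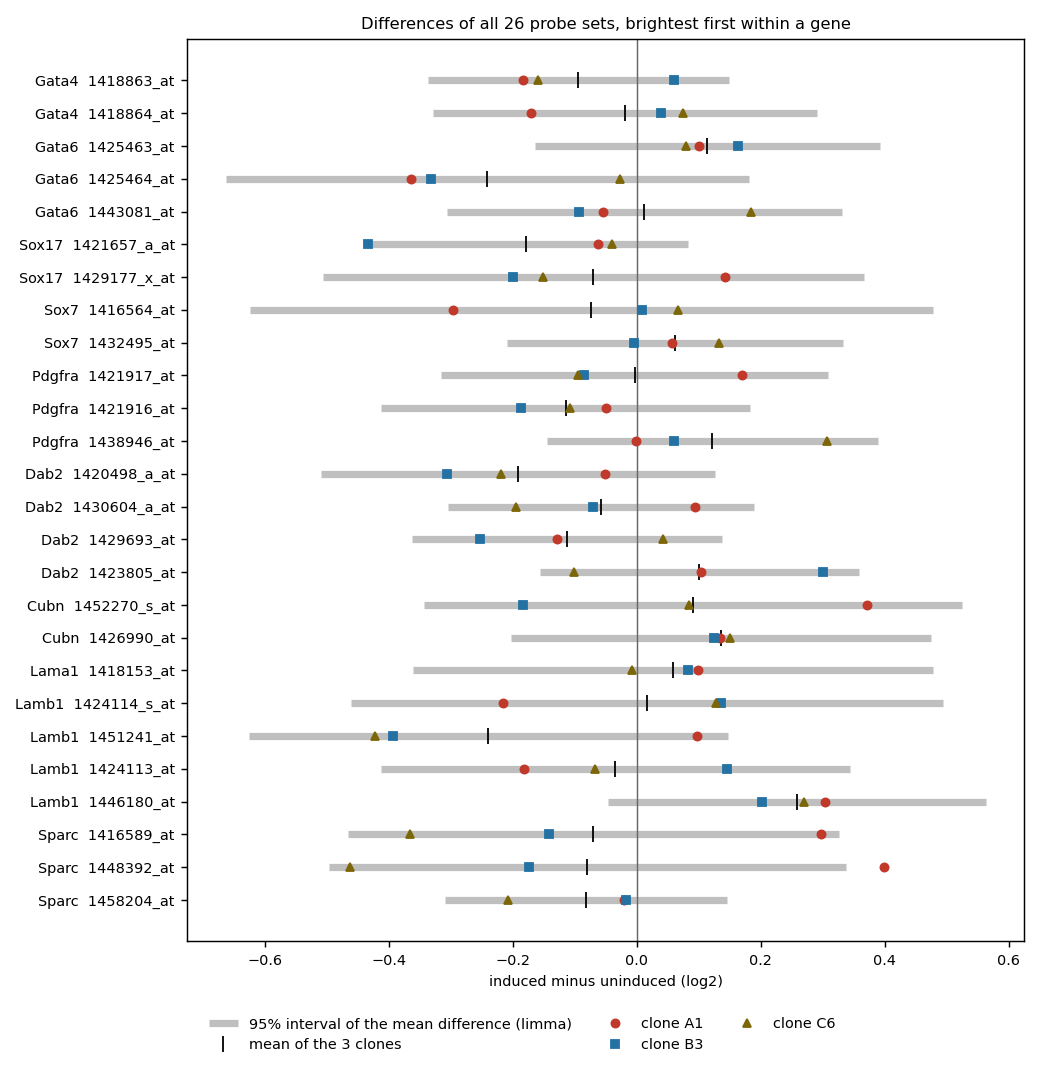
Induced minus uninduced difference (x axis, log2 units) for each of the 26 probe sets of the 10 primitive endoderm genes (rows). Coloured symbols are the 3 clones, the black tick is their mean and the grey band is its 95% interval from limma. Every band includes 0. The 3 clones lie on the same side of 0 in 8 of the 26 rows (30.8%), against 18.8% of all 45037 probe sets.

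Gata4 and Gata6 are zinc finger factors of the primitive endoderm program, and Sox17 and Sox7 are related SOX factors of the same program. All 9 probe sets of these 4 genes had means between 3.78 and 4.95, and each was below the array median on at least 5 of the 6 arrays. A probe set's signal also depends on how well its probes bind, so the level of no gene is set against that of another here.

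Gata4 (probe set 1418863_at) was at 5.13, 4.88 and 4.97 in A1, B3 and C6 without induction, and at 4.95, 4.94 and 4.81 with it. The uninduced mean was 4.99 ± 0.13 and the induced mean 4.90 ± 0.08 (SD, n = 3 each), a log2 difference of -0.09 with a 95% interval of -0.34 to 0.15. The values lay within 0.32 of each other, and the induced arrays lay inside or just below the uninduced range. The other Gata4 probe set differed by -0.02.

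Gata6 (1425463_at) was at 4.88, 4.75 and 4.61 in uninduced A1, B3 and C6 and at 4.98, 4.91 and 4.69 in the induced arrays of the same clones. It was higher in the induced array of every clone, by 0.08 to 0.16, and the groups overlapped (difference 0.11, interval -0.16 to 0.39). Its other probe sets did not share that direction. They differed by -0.24 (1425464_at, lower in all 3 clones) and by 0.01 (1443081_at).

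Sox17 (1421657_a_at) read 5.02, 5.08 and 4.91 in A1, B3 and C6 without induction and 4.95, 4.65 and 4.87 with it. B3 supplied most of the difference, at -0.43, against -0.06 in A1 and -0.04 in C6. The mean difference was -0.18 (interval -0.44 to 0.08), and without A1 it was -0.24 (blocked fit of B3 and C6, interval -0.52 to 0.04). A second Sox17 probe set, whose suffix (_x_at) marks probes that can also bind other transcripts, differed by -0.07.

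Sox7 (1416564_at) read 4.90 in uninduced A1, 4.32 in B3 and 3.99 in C6, and 4.61, 4.33 and 4.06 after induction. Both A1 arrays were above both B3 arrays, and both of those were above both C6 arrays. The induced minus uninduced difference was -0.07 (interval -0.62 to 0.48), which came from A1 at -0.30, since B3 and C6 differed by 0.01 and 0.07. The other Sox7 probe set ran the other way across the 6 arrays (r = -0.82), with clone means of 4.16, 4.20 and 4.41 in A1, B3 and C6, so the order of the clones was not shared by both probe sets.

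**Figure D2:**
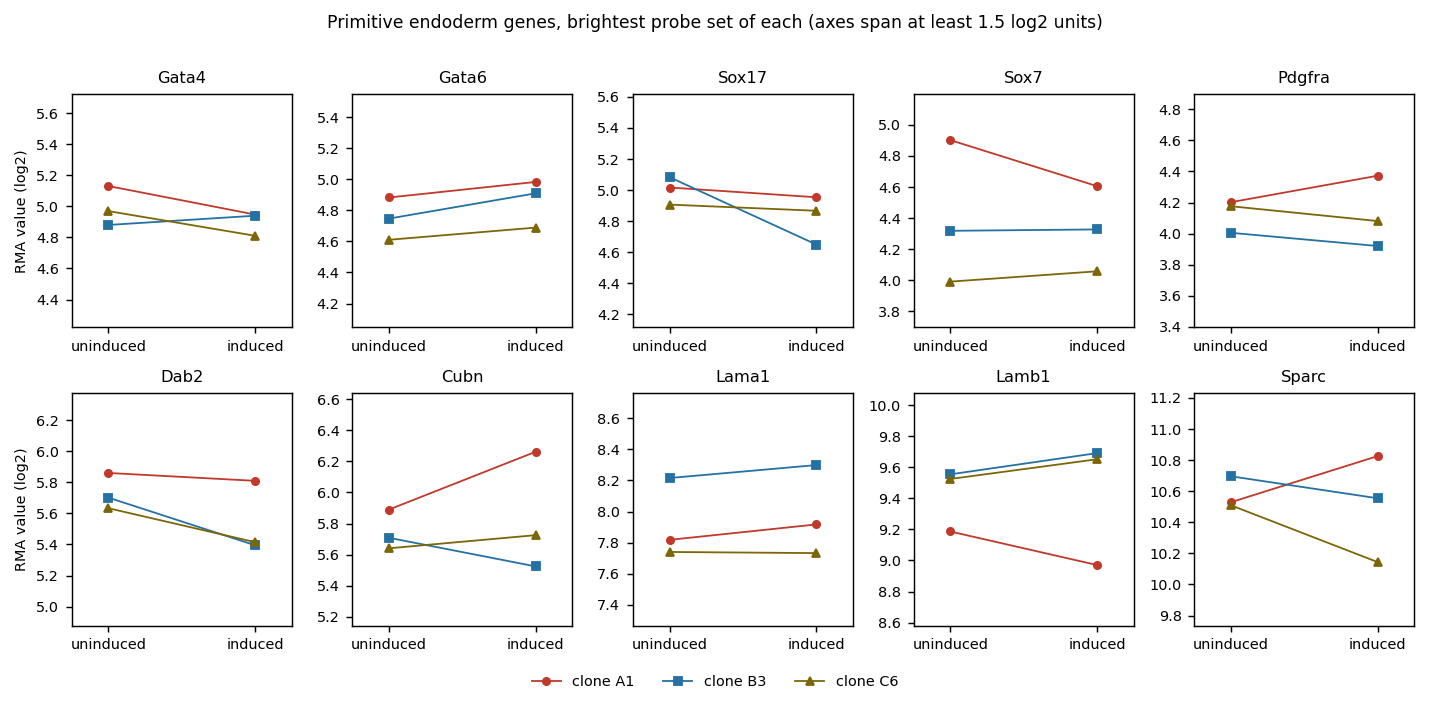
RMA value (y axis, log2) of the brightest probe set of each gene in uninduced and induced cells (x axis), with 1 line per clone. Each panel spans at least 1.5 log2 units, so slopes can be compared by eye. Gata6 slopes up slightly in all 3 clones, Dab2 is lower in the induced array of every clone, and in Sparc the A1 line runs against the other lines.

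Pdgfra, the receptor for platelet-derived growth factor and an early surface marker of primitive endoderm precursors, gave the smallest difference. Its brightest probe set (1421917_at) read 4.20, 4.01 and 4.18 in uninduced A1, B3 and C6 and 4.37, 3.92 and 4.08 in the induced arrays. The difference was -0.0033 (interval -0.32 to 0.31), made of 0.17 in A1 against -0.09 in B3 and -0.10 in C6. Its other probe sets differed by -0.12 and 0.12. The 3 probe sets disagreed among themselves: the brightest correlated at -0.71 and -0.66 with the others over the 6 arrays, all at means of 4.13 or lower.

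Dab2 and Cubn serve uptake from outside the cell. Dab2 is a clathrin adaptor that is switched on in primitive endoderm and needed for its epithelium to form, and Cubn encodes cubilin, a receptor for vitamin B12 carriers and other ligands that works with amnionless. Dab2 (1420498_a_at) read 5.86, 5.70 and 5.63 in A1, B3 and C6 without induction and 5.81, 5.39 and 5.41 with it. It was lower in the induced array of every clone, by 0.05, 0.31 and 0.22 in A1, B3 and C6, the largest mean difference among the 10 brightest probe sets (-0.19, interval -0.51 to 0.13). In B3 and C6 alone the difference was -0.26 (interval -0.50 to -0.02), with a limma adjusted p of 0.26. The second-brightest Dab2 probe set followed it over the 6 arrays (r = 0.86) with a difference of -0.06, and the dimmest ones differed by -0.11 and 0.10.

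Cubn (1452270_s_at, a suffix for probes shared by more than 1 transcript) read 5.89, 5.71 and 5.64 in uninduced A1, B3 and C6 and 6.26, 5.52 and 5.73 in the induced arrays. The induced A1 array was the highest of the 6. The difference was 0.09 (interval -0.34 to 0.52), with 0.37, -0.18 and 0.08 in A1, B3 and C6. The other Cubn probe set was higher in the induced array of all 3 clones, by 0.13 to 0.15, within a range of 4.29 to 4.83 in which the groups overlapped.

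Promoter sequences of 300 bases from RefSeq (GRCm38.p6, from 250 bases before the start site to 50 after) were at hand for 5 of the 10 genes, Pdgfra, Dab2, Cubn, Lamb1 and Sparc, with 6 promoters in all. They were searched on both strands for GATA words (GATA with A or T before it and A or G after it), for the SOX word ACAATG with its variant that reads ACAAAG, and for the core promoter word TATAAA. Among the 6 promoters, 1 held a GATA word, against 29.8% of 32851 RefSeq promoters of this length. No SOX word (28.6% of all promoters) and no TATAAA (13.6%) was present. The promoter with matches belongs to Dab2 (chr15:6299539-6299838, plus strand) and is shown because Gata4 and Gata6 stand in the same set of genes. The other Dab2 promoter among the 6 (chr15:6386498-6386797, plus strand) held none of these words and is not shown. Capitals mark the matches, at positions -179 and 15 from the start site, the latter read on the minus strand.
Dab2 promoter: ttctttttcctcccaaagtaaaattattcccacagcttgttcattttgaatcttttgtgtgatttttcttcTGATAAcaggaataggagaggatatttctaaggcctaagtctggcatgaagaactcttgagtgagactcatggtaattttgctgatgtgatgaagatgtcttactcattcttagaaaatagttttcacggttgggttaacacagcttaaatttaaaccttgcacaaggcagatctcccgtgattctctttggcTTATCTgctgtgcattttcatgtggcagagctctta
The match is a description of letters, and no binding was measured in these data.

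Lama1 and Lamb1 encode the alpha 1 and beta 1 chains of laminin-111, the main laminin of the early embryo and of parietal endoderm, and Sparc encodes a secreted calcium-binding glycoprotein that parietal endoderm makes in quantity. The only Lama1 probe set, the brightest Lamb1 probe set and 2 of 3 Sparc probe sets were above the upper quartile on all 6 arrays. ES cells that have not differentiated are also known to express laminin chains and Sparc.

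Lama1 (1418153_at) was at 7.82, 8.22 and 7.74 in A1, B3 and C6 without induction and at 7.92, 8.30 and 7.73 with it. The arrays separated by clone, with both B3 arrays above both A1 arrays and both of those above both C6 arrays. The difference with induction was 0.06 (interval -0.36 to 0.48) and lay within 0.10 of 0 in every clone.

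Lamb1 (1424114_s_at) was at 9.19, 9.55 and 9.52 in A1, B3 and C6 without induction and at 8.97, 9.69 and 9.65 with it. A1 was lower than the other clones in both states. The difference was 0.02 (interval -0.46 to 0.49), made of -0.22, 0.14 and 0.13 in A1, B3 and C6. A second probe set followed it over the 6 arrays (1424113_at, r = 0.96, difference -0.03).

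Another Lamb1 probe set did not. In 1451241_at the uninduced arrays read 6.80, 7.41 and 7.39 in A1, B3 and C6 and the induced arrays 6.90, 7.01 and 6.96. B3 and C6 were lower after induction by 0.39 and 0.42, while A1 was 0.10 higher. In B3 and C6 alone the blocked difference was -0.41 (interval -0.65 to -0.17) with an adjusted p of 0.088, and no probe set of the 10 genes passed there, where 2.18% of all probe sets did. When only probe sets whose mean reached 6 were tested, a setting added after seeing the data, it passed with an adjusted p of 0.035, against 10.8% of all probe sets in that test. Its correlation with the brighter Lamb1 probe set was 0.48, and the 2 gave opposite directions in B3 and C6. A decrease of Lamb1 in these clones was thus not shared by its probe sets. The fourth (1446180_at) was below the lower quartile on every array and was 0.20 to 0.30 higher in each induced array, with the smallest unadjusted limma p of the 26 (0.087).

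Sparc (1416589_at) was at 10.53, 10.70 and 10.51 in A1, B3 and C6 without induction and at 10.83, 10.55 and 10.14 with it. A1 was 0.30 higher and B3 and C6 were 0.14 and 0.37 lower, so the mean difference was -0.07 (interval -0.47 to 0.33). The second probe set gave the same picture over the 6 arrays (1448392_at, r = 0.98), with 0.40, -0.17 and -0.46 in A1, B3 and C6. The third was dimmer and differed by -0.02, -0.02 and -0.21.

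**Figure D3:**
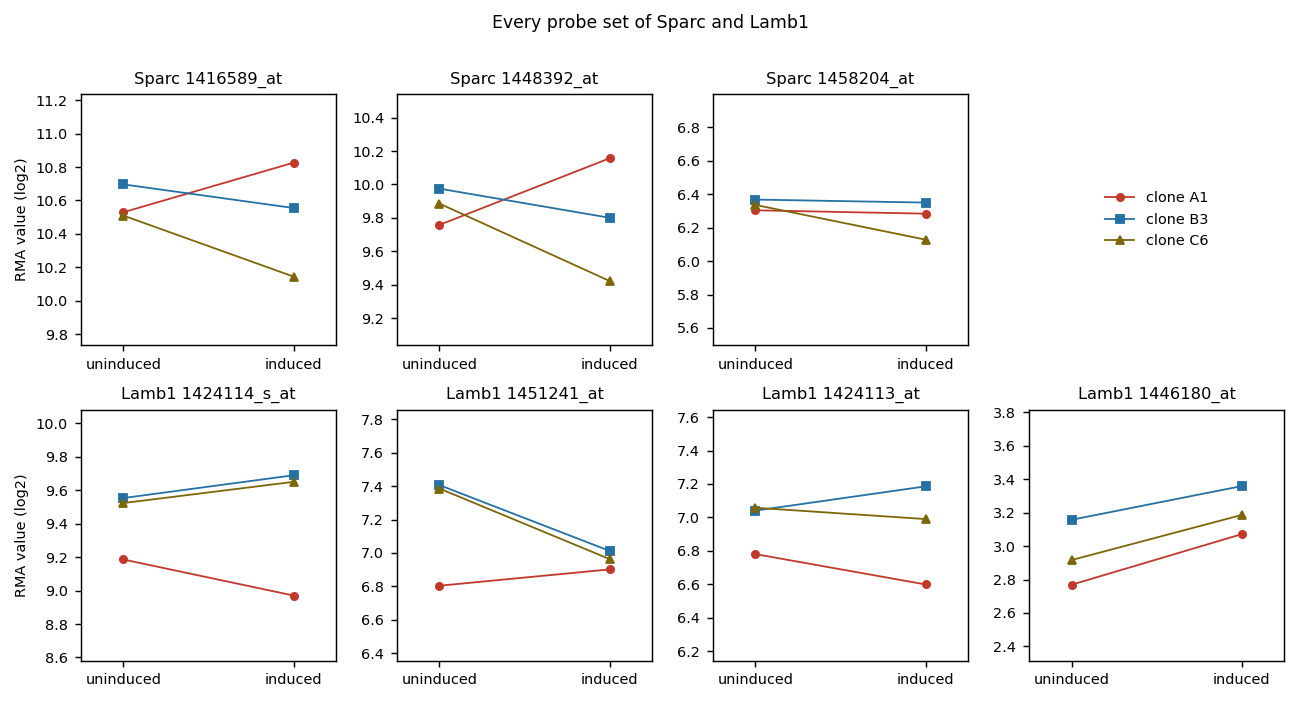
RMA value (y axis, log2, each panel spanning at least 1.5 units) of every Sparc probe set (upper row) and every Lamb1 probe set (lower row) in uninduced and induced cells, with 1 line per clone. The brightest pair of Sparc probe sets shows the same crossing lines, whereas Lamb1 1451241_at is lower after induction in B3 and C6 and 1424114_s_at is higher there.

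With A1 left out and the clone as a block, the differences of the brightest probe sets were -0.05 for Gata4, 0.12 for Gata6, 0.04 for Sox7, -0.09 for Pdgfra and -0.05 for Cubn. Among the matrix genes they were 0.04 for Lama1, 0.13 for Lamb1 and -0.25 for Sparc (interval -0.51 to -0.0016, limma adjusted p = 0.31). Sox17 and Dab2 were given above. None passed, and 4 of the 26 probe sets had an unadjusted p under 0.05, where 7249 of all 45037 did. Among the 10 brightest probe sets, the signs of Sox7 and Cubn were the opposite of those over all 3 clones, both within their intervals.

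The design allowed a test of whether A1, as labelled, differed from B3 and C6 in its response, at the cost of setting 1 difference against 2. This contrast was chosen with earlier results of these data known, so its p values are not those of a contrast set in advance. None of the 26 probe sets passed, and 2.71% of all probe sets did. At an unadjusted p under 0.05 there were 3 of 26 (Sparc 1448392_at, Sparc 1416589_at and Lamb1 1451241_at), and 7682 of all 45037. The A1 difference exceeded the mean of B3 and C6 by 0.72 in Sparc 1448392_at (interval 0.27 to 1.17, limma adjusted p = 0.099), by 0.55 in 1416589_at (interval 0.11 to 0.99, adjusted p = 0.18) and by 0.51 in Lamb1 1451241_at (interval 0.09 to 0.92, adjusted p = 0.19). Sparc 1448392_at passed when only probe sets whose mean reached 6 were tested (adjusted p = 0.042, where 13.7% of all passed), and both Sparc probe sets passed when the variance was allowed to follow intensity (adjusted p = 0.013 and 0.030, where 6.63% of all passed). A1 moved against both other clones in 10 of their 26 probe sets (38.5%), against 41.4% of all probe sets.

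Among the clones, apart from induction, no member passed either. The moderated F-test with the induction state as a covariate gave 0 of 26 (1.13% of all probe sets passed) and 0 of the 7 whose mean reached 6 (0.629%), and 8 of 26 at an unadjusted p under 0.05, where 6192 of all 45037 did. Sox7 1416564_at had the smallest adjusted p (0.12), with clone means of 4.75, 4.32 and 4.02 in A1, B3 and C6. C6 was below A1 by 0.73 (SE 0.13, pairwise adjusted p = 0.094), and the neighbours in that order, A1 with B3 and B3 with C6, had adjusted p values of 0.22 and 0.47. Lama1 followed with means of 7.87, 8.26 and 7.74 (adjusted p = 0.16) and Lamb1 1424114_s_at with 9.08, 9.62 and 9.59 (adjusted p = 0.19). Lama1 and Lamb1 therefore did not share a clone order, since A1 was lowest for Lamb1 and C6 for Lama1.

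These counts depended on the A1 arrays. Without the uninduced A1 array 4 of 26 probe sets passed, those of Lamb1 (1424114_s_at), Lama1, Sox17 (1429177_x_at) and Cubn (1452270_s_at), with 8.52% of all probe sets. Without the induced A1 array 2 of 26 passed, Sox7 (1416564_at) and Lama1, with 7.47% of all. Leaving out any single array of B3 or C6 gave 0 of 26.

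Read without a test, both A1 arrays were above the other 4 in 4 of the 10 brightest probe sets, those of Sox7, Pdgfra, Dab2 and Cubn, and 11.7% of all genes had that order. Both C6 arrays were below the other 4 in another 4, those of Gata6, Sox7, Lama1 and Sparc, and 7.46% of all genes had that order. B3 was above the other 4 for Lama1 (14.6% of all genes) and below for Pdgfra (13.8%), A1 was below for Lamb1 (12.2%), and C6 was above for none (9.93%). For Pdgfra, A1 averaged 4.29, B3 3.96 and C6 4.13, and for Dab2 5.83, 5.55 and 5.52. Other probe sets did not always share the A1 order. In Sox7 1432495_at and Pdgfra 1421916_at both A1 arrays were below the other 4. In Dab2 1430604_a_at and Cubn 1426990_at both A1 arrays were above the other 4. The remaining Pdgfra and Dab2 probe sets had neither of these A1 orders. No other probe set of Gata6, Sox7 or Sparc shared the C6 order, and Lama1 has no other probe set. In Sox7 1432495_at both C6 arrays were above the other 4, and in Pdgfra 1438946_at both B3 arrays were. Every Sox7 and Pdgfra probe set was below the array median on all 6 arrays.

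**Figure D4:**
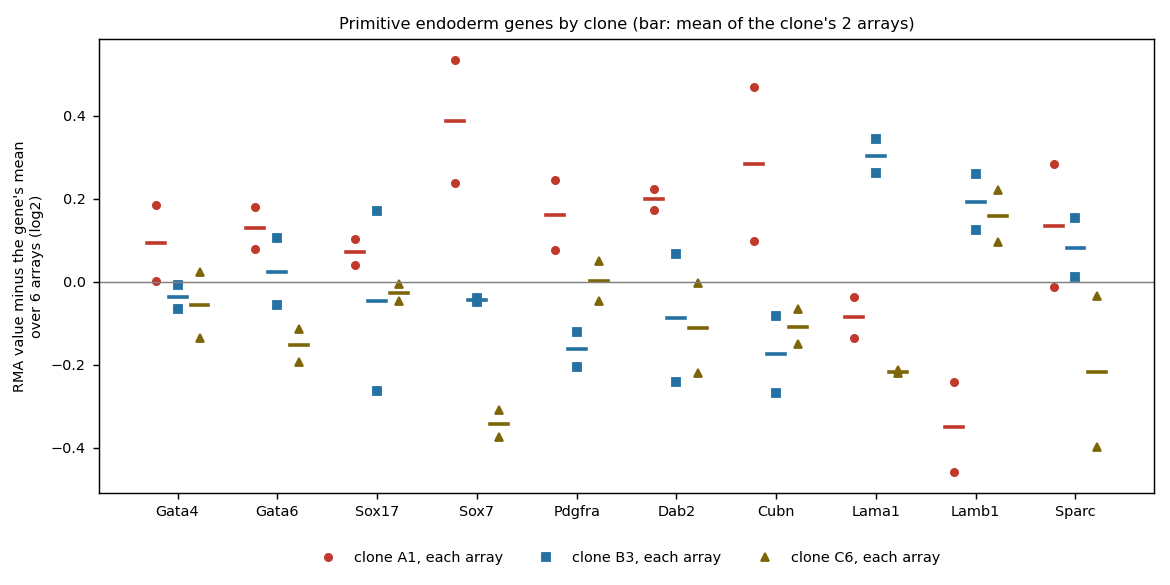
RMA value of the brightest probe set of each gene minus that gene's mean over the 6 arrays (y axis, log2 units), by gene (x axis) and clone. Points are single arrays and bars the mean of a clone's 2 arrays. Sox7 is ordered A1, B3, C6 with no overlap, Lama1 is highest in B3, and Lamb1 is lowest in A1.

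The genes whose pattern over the 6 arrays was most like that of Sox7 1416564_at, among 9561 genes whose mean reached 6, were Nupl2 (r = 0.998), Akip1 (r = 0.993) and Rbms1 (r = 0.990). The most opposite were Phf3, Zfp866 and Cst3 (r from -0.999 to -0.994). With 6 arrays many genes reach such values: 209 had r of at least 0.9 and 147 of -0.9 or lower. These correlations share the 6 arrays and carry no test.

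Genes around these 10 were taken from lists, each gene by its brightest probe set, with the adjustment over all probe sets. In the comparison of induced with uninduced arrays 0 genes passed in any of the 11 lists, as in all 18193 genes (0%), and limma's unadjusted p was under 0.05 for none. The methods' per-gene test had an unadjusted p under 0.05 for 1 relative of the GATA and SOX factors and 1 mesoderm gene. Over all 18193 genes the unadjusted p was under 0.05 for 249 by that test and for 96 in limma.

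Other genes of primitive and parietal endoderm (17 measured: regulators such as Foxa2 and Hhex, and matrix and surface genes such as Col4a1, Serpinh1 and Thbd) had 8 higher and 9 lower means after induction and a median difference of -0.01. The smallest p values belonged to Cited1 (a log2 difference of -0.19), Plat (0.18), Foxa2 (0.09) and Serpinh1 (-0.30), none of which passed. Serpinh1, a collagen chaperone, was 0.23 higher in induced A1 and 0.48 and 0.66 lower in induced B3 and C6, and in B3 and C6 alone it fell by 0.57 (blocked limma, adjusted p = 0.036), the only gene of this list that passed there (1.81% of all genes). The brightest Sparc probe set had the same signs as Serpinh1 in A1, B3 and C6, and the dimmest did not. A1 moved against both other clones in 60.3% of all probe sets whose mean reached 6. Srgn, a proteoglycan core protein, was the only gene of the list past the test of A1 against B3 and C6 (2.68% of all genes passed), with -0.83, 0.02 and 0.56 in A1, B3 and C6 (adjusted p = 0.044).

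Some genes of this list differed among the clones. Krt8, Krt18 and Rhox5 passed the clone test (3 of 17, against 1.67% of all genes), and they were picked out after their values were seen. Krt8, a keratin of simple epithelia including extraembryonic endoderm, read 7.85 and 7.84 in the A1 arrays, 6.35 and 6.38 in B3 and 6.04 and 5.89 in C6 (adjusted p = 0.0047). Its partner keratin Krt18 read 7.32 and 7.25 in A1 against 6.43 to 6.55 in the other 4 arrays (adjusted p = 0.045). Rhox5, a homeobox gene on the X chromosome known in parietal endoderm, was low in B3 alone, with 7.16 and 7.42 against 9.05 to 9.49 (adjusted p = 0.015).

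Visceral endoderm genes (17 measured, among them Afp, Ttr, Hnf4a and apolipoproteins) had 11 higher and 6 lower means and a median difference of 0.02. Those with the smallest p were Ihh (a difference of 0.14), Apoa2 (0.11), Fgb (0.12) and Rbp4 (0.08). Spink1, a trypsin inhibitor, and Dpp4, a surface peptidase, differed among clones. Spink1 averaged 7.66, 10.49 and 9.39 in A1, B3 and C6 (adjusted p = 0.0013), and Dpp4 averaged 6.18, 5.49 and 7.18 (adjusted p = 0.013).

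**Figure D5:**
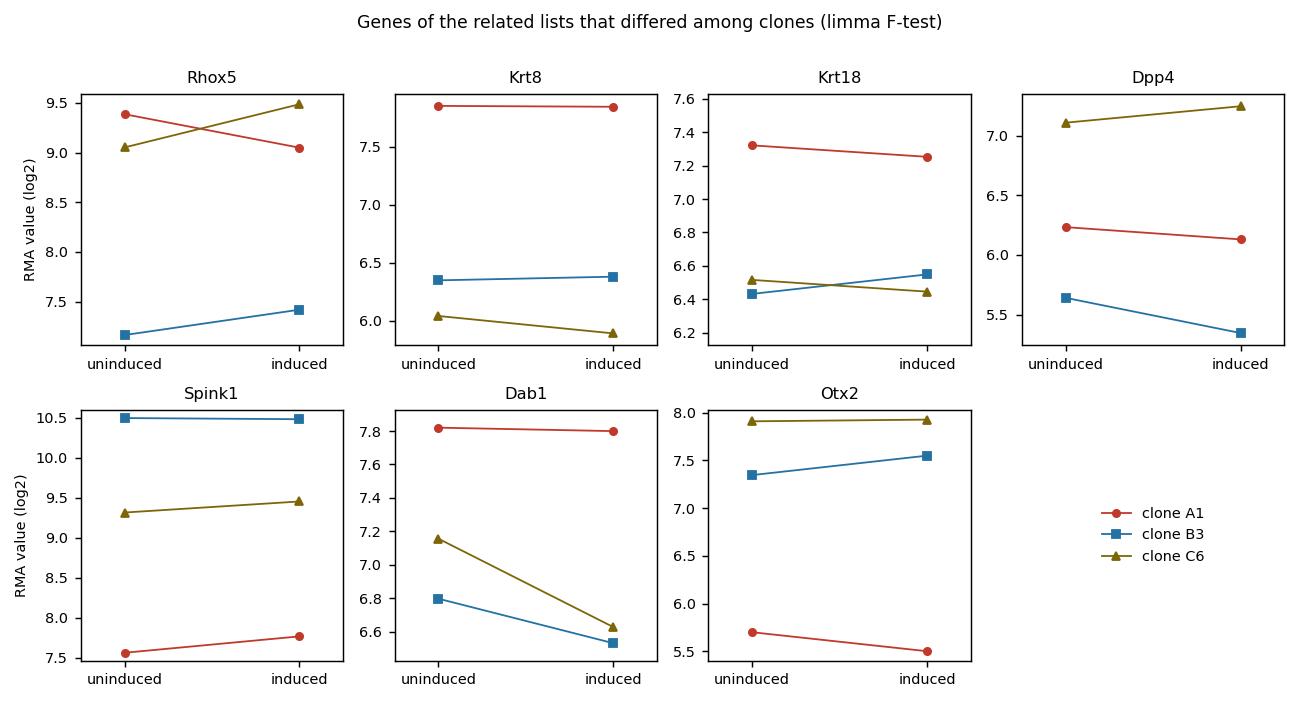
RMA value (y axis, log2, with its own range in each panel) of the 7 related genes that passed the clone test, in uninduced and induced cells, with 1 line per clone. Krt8 and Krt18 are highest in A1, Spink1 is highest in B3, and Otx2 is lowest in A1 in both states. These genes were chosen for this difference.

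The genes of the growth factor signal that guides the primitive endoderm choice (16 measured: Fgf4, its receptors, Grb2, Sos1, Map2k1, Map2k2, Dusp6 and the PDGF ligands among them) had a median difference of -0.01. The smallest p values were those of Sos1 (a difference of 0.14), Grb2 (-0.16), Fgfr1 (-0.25) and Pdgfa (-0.25). Pdgfa, a ligand of Pdgfra, was 0.55 higher in induced A1 and 0.45 and 0.84 lower in induced B3 and C6. It passed the test of A1 against the others (difference 1.19, adjusted p = 0.025) and fell by 0.64 in B3 and C6 alone (adjusted p = 0.036). Map2k2, a kinase of the ERK cascade, passed the test of A1 as well (1.30, adjusted p = 0.019). The receptor Pdgfra showed no such split beyond its interval, with an A1 difference that exceeded B3 and C6 by 0.26 (interval -0.15 to 0.67).

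The relatives of the GATA and SOX factors (7 measured) had a median difference of -0.05, and none passed any of the 3 tests. Those with the smallest p were Gata2 (a difference of 0.10, at 6.71 to 7.13 over the 6 arrays), Sox18 (-0.19), Gata5 (0.16) and Gata3 (-0.05). The other laminin chains and basement membrane genes (17 measured) had 5 higher and 12 lower means with a median of -0.04, and 0 passed any of the 3 tests. Lama5, the alpha chain of laminin-511, was 0.39 higher in induced A1 and 0.35 and 0.56 lower in induced B3 and C6.

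The endocytic partners of Dab2 and cubilin (8 measured) included Amn and Lrp2, which sit with cubilin at the membrane, and the clathrin adaptor subunit gene Ap2a1. Ap2a1 was 1.01 higher in induced A1 and lower in induced B3 and C6, with differences of -0.87 and -1.58. It passed the test of A1 (difference 2.23, adjusted p = 0.0069) and fell by 1.23 in B3 and C6 alone (adjusted p = 0.010). Amn, whose product anchors cubilin, was at 6.32 and 6.33 in A1, 5.23 and 5.33 in B3 and 5.52 and 6.02 in C6, with no pass in any test. Dab1, a relative of Dab2 known from neurons, averaged 7.81, 6.66 and 6.89 in A1, B3 and C6 (clone test, adjusted p = 0.040).

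Markers of other cell states were read beside the 10 genes. The 12 ES cell identity genes had a mean log2 value between 11.60 and 11.80 on every array. Esrrb was the only one past any of the 3 tests, with 0.51 in A1 against -0.36 and -0.65 in B3 and C6 (adjusted p = 0.035). The mean log2 values were 4.56 to 4.91 for definitive endoderm (8 genes), 5.04 to 5.31 for mesoderm (8), 5.14 to 5.37 for trophectoderm (8) and 5.35 to 5.47 for fibroblasts (12), and the induced and uninduced ranges overlapped in each list. Otx2, listed with definitive endoderm and known also from epiblast, averaged 5.60, 7.45 and 7.92 in A1, B3 and C6 (adjusted p = 0.0040). Tfap2c, listed with trophectoderm, moved the other way in A1 (-0.58, against 0.68 and 0.49) and passed the test of A1 (adjusted p = 0.019). Whether the clone differences in these markers have a part in the values of the 10 genes was not tested.

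The clone calls among the related genes depended on single arrays. Without the uninduced B3 array none of the 7 genes passed, with adjusted p values from 0.054 for Spink1 and Otx2 to 0.32 for Krt18 and Dab1, and without the induced B3 array Spink1 alone passed. Krt18 and Dab1 did not pass when either C6 array was left out, nor Dpp4 without the induced one. The directions and sizes remained, for example -1.96 to -1.80 for C6 minus A1 in Krt8 over 11 alternatives.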

How the data were processed

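The authors made the deposited log2 values by robust multiarray averaging (RMA) of arrays of total RNA, per the methods. The versions of R and of the package behind these values are not given in the sources used here. The values were used as deposited, without 64 Affymetrix controls. The tested 45037 probe sets comprised 34945 that carry 1 gene symbol, 932 that carry several and 9160 unnamed here. The brightest probe set stood for a gene, and of each related list the 4 genes with the smallest p were named. The members, the lists and the test of A1 against B3 and C6 were chosen with earlier results of these data known.

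Group comparisons used limma 3.58.1 (R 4.3.3, lmFit and then eBayes, two-sided, p adjusted by Benjamini-Hochberg across every probe set tested, threshold 0.05) in place of the methods' per-gene t-test, which was an alternative. The A1 difference was set against those of B3 and C6, and clones were compared by a moderated F-test with the induction state as a covariate. Scripts were tested on simulated data. The same clone stood in both groups, so clones pair the samples: deviations of a clone's 2 arrays from their group means correlated at 0.19 (A1), 0.53 (B3) and 0.31 (C6). The number of arrays limits the precision. Alternatives covered the replicate block, test, variance trend, array weights, normalization, filters and left-out arrays or clones.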

Additional observations from a re-analysis of the deposited data

Results flagged for a closer look

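In 6 related genes the response of A1, as its arrays are labelled, differed from that of B3 and C6 by a limma test of the difference itself, with 1 clone set against 2. The contrast was chosen with earlier results of these data known. A different response of A1 cannot be told apart from an exchange of its uninduced and induced labels, which would turn the sign of its differences. The A1 difference minus the mean of the other clones was 2.23 for Ap2a1 (adjusted p = 0.0069), 1.30 for Map2k2 (adjusted p = 0.019), 1.19 for Pdgfa (adjusted p = 0.025) and 1.02 for Esrrb (adjusted p = 0.035). It was -1.17 for Tfap2c (adjusted p = 0.019) and -1.12 for Srgn (adjusted p = 0.044). Each except Srgn passed in all 4 alternatives, and across all genes 2.68% passed this test. Map2k2 and Tfap2c have other probe sets whose induced minus uninduced difference had the opposite sign (1 of 1 and 2 of 2). That difference is not the A1 contrast, whose sign in the other probe sets is not given here.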

How the results depend on the processing

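No member probe set passed the comparison of induced with uninduced arrays in 16 of 17 alternatives, among them the replicate block (smallest adjusted p over the 26 probe sets 1.00), the methods' t-test, leaving out each array (0 in each) and leaving out B3 or C6. The exception joined a pair of choices after the data were seen: without A1, with the replicate block and a mean of at least 6, 1 of 7 passed (adjusted p = 0.035). In the test of A1 against B3 and C6, 1 passed among probe sets whose mean reached 6 and 2 under the intensity trend, and 0 with quantile normalization or 1 probe set per gene. In the test among clones the count ranged from 0 to 4 when single arrays were left out and was 0 in the other alternatives. In the brightest probe sets the signs of Gata4, Gata6, Sox17 and Dab2 with induction held in all 15 alternatives each. That of Pdgfra changed in 6, Lamb1 in 5 of 17 and Sox7 in 4. On their own, the replicate block, t-test, intensity trend, mean filter and 1 probe set per gene keep the estimate, so no sign could change. For Gata6, Sox17 and Dab2 all 3 clones lay on the same side of 0, so leaving out a clone could not change the sign either. Krt18 and Dab1 lost their clone call with a mean of at least 6, Krt18 also under quantile normalization and the intensity trend, and Srgn lost its call with 1 probe set per gene. The causes were not tested. Low signal (14 of 26 probe sets below the array median on all arrays) and 3 arrays per group limit what can be seen.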
